A study of Mus musculus with 28 samples.

Results

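*Crh*, *Olig1*, *Cbln2* and *Rbfox3* are 4 genes best known from the nervous system that stood higher in *Pax1-/-* than in *Pax1* WT EGFP(+) cells of the embryonic vertebral column. They were picked for that difference from the 13373 genes with a detected probe, through the 7 array probes that the platform annotation maps to their symbols, of 45281 probes in all. Their values in *Pax1-/-* and WT cells are therefore given as a description without a test. For these 4 genes a test is given only in comparisons that hold neither of these groups, among *Pax1+/-*, compound mutant and EGFP(-) cells. The spread used in these tests was still estimated over all groups of a model, WT and *Pax1-/-* replicates included.

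*Crh* encodes corticotropin-releasing hormone, the hypothalamic peptide that drives the pituitary stress axis. *Olig1* encodes a basic helix-loop-helix transcription factor of oligodendrocyte progenitors and, with its neighbour *Olig2*, of the ventral neural tube. *Cbln2* encodes a secreted protein of the C1q family that bridges presynaptic neurexins and postsynaptic glutamate delta receptors. *Rbfox3* encodes a splicing factor of postmitotic neurons, known to histologists as the antigen NeuN. *Pax1* and *Pax9*, by contrast, encode paired-box transcription factors of the sclerotome, the somite derivative from which vertebral bodies and intervertebral discs form.

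The levels come from 28 Illumina MouseWG-6 arrays with amplified RNA of cells that were FACS-sorted from E12.5 embryos, 2 vertebral columns to a biological replicate. Of these arrays 6 hold EGFP(+) cells of WT embryos, with 0 *Pax* alleles lost, and 5 those of *Pax1+/-* embryos, with 1 lost. Another 8 hold *Pax1-/-* cells (2 lost), 3 hold *Pax1-/-Pax9+/-* cells (3 lost), 3 hold *Pax1-/-Pax9-/-* cells (4 lost) and 3 hold EGFP(-) cells. WT here is a knock-in in which EGFP follows a functional *Pax1* through a 2A peptide, so every EGFP(+) group carries a modified *Pax1* locus that drives EGFP in *Pax1*-expressing cells. In the mutant alleles of *Pax1* and of *Pax9* EGFP interrupts the paired-box domain instead. Cells sorted from the compound mutants can therefore be EGFP(+) through either locus, and this cannot be told apart from the loss of *Pax9*. The paper names its WT embryos as heterozygous for the knock-in, with 1 EGFP copy at *Pax1*, where *Pax1-/-* embryos have 2. WT and *Pax1-/-* cells thus also differ in the kind and number of EGFP alleles they were sorted by. This cannot be told apart from the loss of *Pax1*. The genotype of the EGFP(-) cells is not given in the labels.

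Arrays that share a group and a replicate name were averaged, so that n was 5 in WT, *Pax1+/-* and *Pax1-/-* cells, and 3 elsewhere. Levels are log2 intensities after background correction and quantile normalization. The 4 pairs of averaged arrays correlated at 0.9471 to 0.984. The pairs of *Pax1-/-* replicates 2 and 3 and of WT replicate 5 had the lower values (0.9572, 0.9525 and 0.9471). Whether these pairs hold the same sample was held in doubt, and 1 alternative leaves out their arrays on chip 2. All compound mutant arrays lie on chip 1, which together with chip 2 forms series B, and EGFP(-) and *Pax1+/-* arrays lie on chips 3 to 5, series A. WT and *Pax1-/-* arrays lie on chips 2 to 5. A difference between the compound mutants and any other group can therefore not be told apart from a difference between chips. An array of series B detected 42.2% to 44.23% of its probes, and an array of series A 45.44% to 50.64%. *Pax1* read 10.54 to 11.53 in all EGFP(+) replicates, the mutants included, and 8.57, 7.66 and 4.71 in EGFP(-) cells. No source used here says whether the probes of *Pax1* or *Pax9* lie in the disrupted part, so their levels are no check of the disruption. *Pax9* read 4.73 and 4.77, not detected, in replicates 2 and 3 of *Pax1-/-Pax9-/-*, but 6.85 in the library labelled *Pax1-/-Pax9-/-* replicate 1, next to 6.58 to 6.94 in *Pax1-/-Pax9+/-* cells. The tests of the 4 genes that rest on this library are given again without it, and so is the count of the neural lists against *Pax1+/-* cells. Other values that rest on it are given only with it.

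*Crh* had a level (log2) of 5.89, 4.46, 4.74, 5.31 and 6.21 in the 5 WT replicates and of 4.32, 4.64, 5.77, 5.53 and 4.76 in the *Pax1+/-* replicates. Without *Pax1* it stood at 6.81, 7.63, 7.7, 7.7 and 6.76. The lowest *Pax1-/-* replicate thus lay above the highest WT replicate, and no replicate overlapped between these groups. In the compound mutants *Crh* read 7.87, 8.33 and 8.45 in *Pax1-/-Pax9+/-* cells and 9.14, 9.18 and 9.09 in *Pax1-/-Pax9-/-* cells. Each further *Pax* allele lost beyond the first thus went with a higher level, with no overlap from WT to *Pax1-/-*, from there to *Pax1-/-Pax9+/-* and from there to *Pax1-/-Pax9-/-*. EGFP(-) cells were low, at 4.36, 5.62 and 4.37, and overlapped with WT and *Pax1+/-* cells.

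The single *Crh* probe was detected on all 8 *Pax1-/-* arrays and on all 6 compound mutant arrays. It was detected on 3 of 6 WT arrays, 2 of 5 *Pax1+/-* arrays and 1 of 3 EGFP(-) arrays, so that these levels are close to background. The log2 difference of *Pax1-/-* over WT was 2 (standard error 0.319, 4-fold). Against WT the differences of *Pax1-/-Pax9+/-* and *Pax1-/-Pax9-/-* were 2.9 and 3.81 (standard error 0.369 each), 7.44- and 14.1-fold. The size of these differences depends on how values near background are scaled. With signals floored at 1 they were 3.56, 4.54 and 5.49 for 2, 3 and 4 alleles lost, and by the authors' log2 values 1.13, 1.82 and 2.61.

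*Cbln2*, detected by both of its probes on every one of the 28 arrays, followed a similar order at a higher base. It had a level of 6.82, 6.14, 6.68, 6.39 and 7.12 in WT and of 6.72, 7.02, 6.73, 6.55 and 7.02 in *Pax1+/-* replicates, which overlapped. *Pax1-/-* replicates stood at 8.03, 7.48, 7.99, 7.91 and 7.74, all above both groups. *Pax1-/-Pax9+/-* cells, at 7.95, 7.68 and 7.83, lay within the range of *Pax1-/-* cells, while *Pax1-/-Pax9-/-* cells, at 8.69, 8.6 and 8.87, lay above it. Where *Crh* was higher with 3 than with 2 alleles lost, *Cbln2* thus had overlapping levels. In contrast to *Crh*, it was also high in EGFP(-) cells, at 7.79, 7.28 and 7.78, above every WT and *Pax1+/-* replicate and overlapping with *Pax1-/-* cells. The log2 difference of *Pax1-/-* over WT was 1.2 (standard error 0.156, 2.3-fold).

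The 2 *Cbln2* probes had the same order of *Pax1-/-* above WT. The first read 7.32 on average over the 8 *Pax1-/-* arrays and 6.15 over the 6 WT arrays, and the second 8.31 and 7.03. In *Pax1-/-Pax9+/-* cells they parted, the first at 7.71 lying above and the second at 7.94 below their *Pax1-/-* means.

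*Olig1* was at background in WT cells, at 4.53, 4.78, 4.56, 4.79 and 4.56, its probe detected on 1 of 6 arrays. *Pax1+/-* cells read 4.56, 4.6, 4.5, 5.01 and 4.6, with the probe detected on 1 of 5 arrays. In *Pax1-/-* cells it stood at 6.53, 5.33, 6.27, 7.07 and 6.6, and the probe was detected on 7 of 8 arrays. Every *Pax1-/-* replicate lay above every WT and *Pax1+/-* replicate. The exception among the arrays was *Pax1-/-* replicate 2 on chip 3, which read 4.61 and was not detected, whereas the array of the same replicate name on chip 2 read 6.04. The log2 difference of *Pax1-/-* over WT was 1.72 (standard error 0.272, 3.29-fold). As WT was mostly not detected, this size too depends on the scaling, with 4.7 when signals were floored at 1 and 0.83 by the authors' log2 values.

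Unlike *Crh* and *Cbln2*, *Olig1* did not stand high in the compound mutants. *Pax1-/-Pax9+/-* cells read 4.55, 4.68 and 4.69, detected on none of the 3 arrays, and *Pax1-/-Pax9-/-* cells 4.58, 6.15 and 4.65, detected on replicate 2 alone. The *Pax1-/-Pax9+/-* replicates thus lay under every *Pax1-/-* replicate and overlapped with WT. Its highest levels were those of EGFP(-) cells, at 8.38, 8.23 and 8.48, above every EGFP(+) replicate of any genotype. *Olig2* could not be set beside it, since its only probe was detected on 0 of 28 arrays, those of EGFP(-) cells included.

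*Rbfox3* was also close to background in EGFP(+) cells. WT replicates read 4.75, 4.46, 4.8, 4.51 and 4.8, and *Pax1+/-* replicates 4.72, 5.01, 4.57, 5.14 and 4.98. *Pax1-/-* replicates, at 5.69, 5.6, 5.34, 5.5 and 5.56, lay above all of them, by a log2 difference of 0.87 over WT (standard error 0.126, 1.83-fold). It was the smallest of the 4 differences in this scaling and by the authors' log2 values (0.43), but with signals floored at 1 it was 2.72, above the 1.36 of *Cbln2*. In *Pax1-/-Pax9+/-* cells it was back at 4.8, 4.51 and 4.62, overlapping with WT and below every *Pax1-/-* replicate, while *Pax1-/-Pax9-/-* cells read 5.43, 5.76 and 5.21. EGFP(-) cells, at 7.16, 7.19 and 8.03, were the highest group, as they were for *Olig1*.

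**Figure D1:**
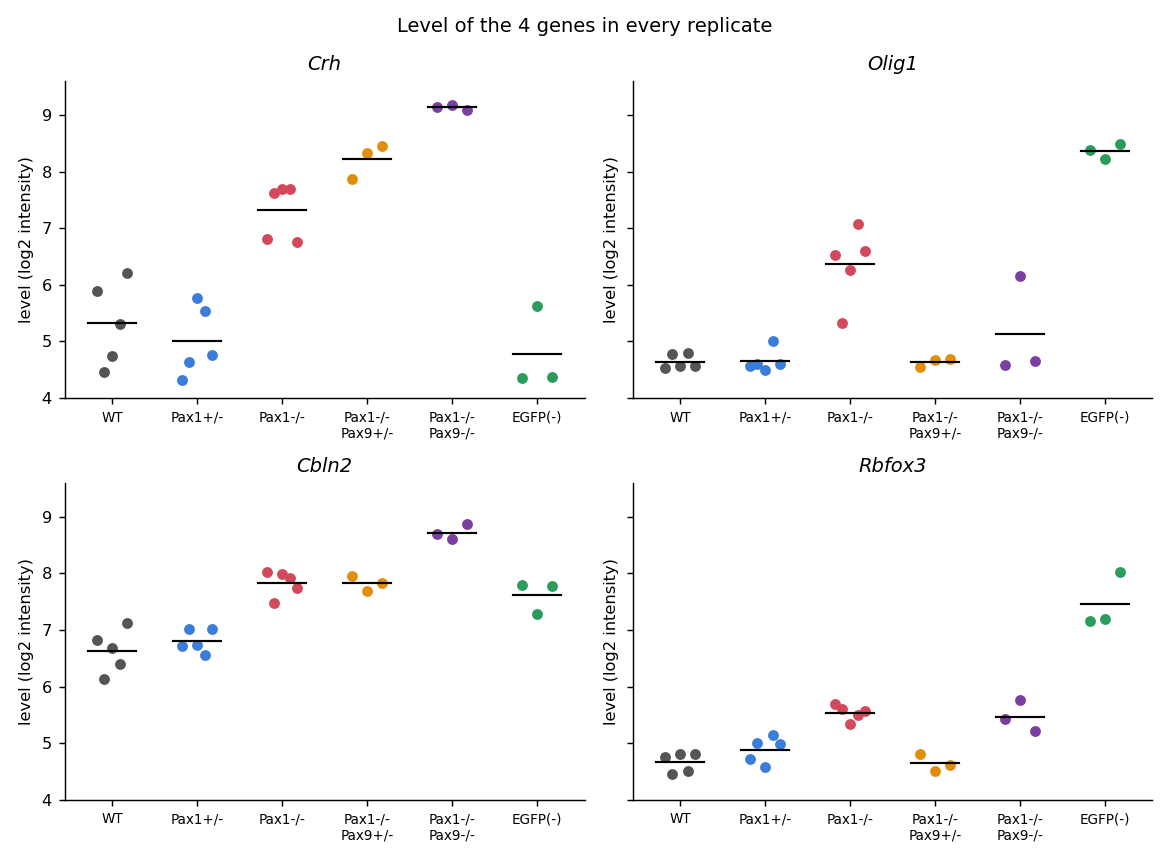
Level of each of the 4 genes (log2 intensity, vertical axis) in the 6 groups (horizontal axis), with 1 point for each replicate and a line at the group mean. *Crh* and *Cbln2* are highest in *Pax1-/-Pax9-/-* cells, with means of 9.14 and 8.72, whereas *Olig1* and *Rbfox3* are highest in EGFP(-) cells, with means of 8.36 and 7.46.

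*Rbfox3* has 3 probes, and they did not read alike. One was detected on 1 of 28 arrays and was left out. Of the others, the first was detected on 4 and the second on 6 of the 8 *Pax1-/-* arrays. On the arrays of *Pax1-/-* replicate 2 the first read 4.65 on chip 2 and 6.48 on chip 3, and the second the reverse, 6.81 and 4.43. Replicate 1 was high by the first alone, at 6.73 against 4.65, and replicate 5 by the second alone, at 6.55 against 4.56. The narrow range of the averaged *Pax1-/-* level, 5.34 to 5.69, thus comes from probes that were high on different arrays. In EGFP(-) cells both were high on all 3 arrays, at 7.9 to 8.47 and at 6.42 to 7.59. Taken alone, they gave log2 differences of 0.66 and 1.08 for *Pax1-/-* over WT.

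**Figure D2:**
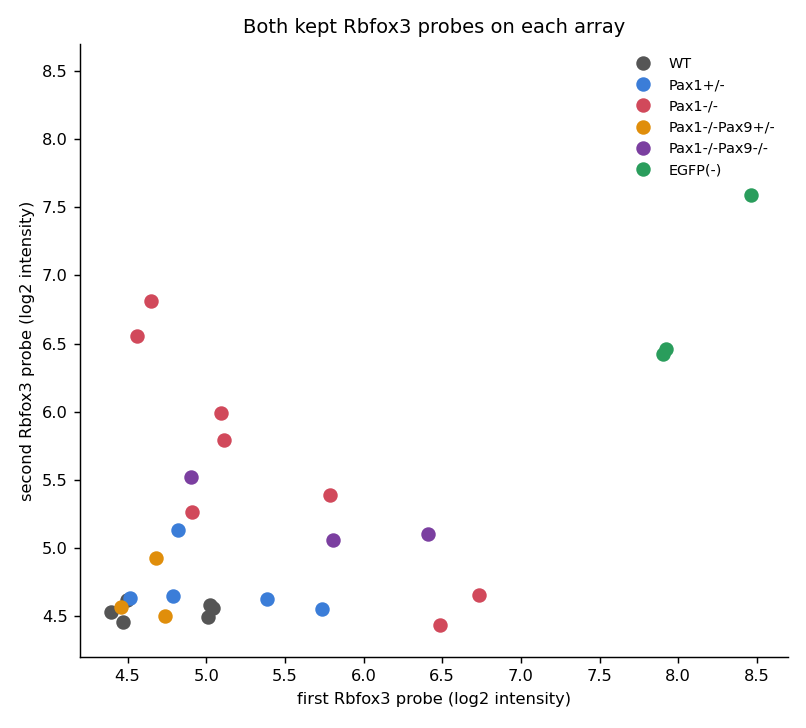
Level on each array by the 2 kept *Rbfox3* probes (log2 intensity on both axes), with 1 point for each of the 28 arrays, coloured by group. The 3 EGFP(-) arrays are high by both, while several *Pax1-/-* arrays are high by one probe alone, up to 6.73 by the first and 6.81 by the second.

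In *Pax1-/-* against WT cells, the comparison the genes were picked from, limma called 30 of 13373 genes (0.224%), 18 of them higher (0.135%) and 12 lower. A call here needs an adjusted p under 0.05, by Benjamini-Hochberg, together with a 1.5-fold difference. By size of the difference *Crh*, *Olig1*, *Cbln2* and *Rbfox3* stood at ranks 1, 2, 18 and 59, and with signals floored at 1 *Olig1* lay above *Crh*. Higher in every *Pax1-/-* than in every WT replicate were 161 genes, 1.2% of those tested. Since this contrast served to pick the genes, no call is given for them and nothing is read from these counts. Within single chips the mean of *Pax1-/-* arrays exceeded that of WT arrays for each of the 4 genes on all 4 chips that hold both. These are the arrays by which the genes were picked, and some replicates have arrays on different chips. The chips are thus a description of the spread in size, and nothing is read from their shared direction. The log2 difference ranged from 0.91 to 3.29 for *Crh*, from 0.81 to 2 for *Olig1*, from 1.06 to 1.33 for *Cbln2* and from 0.64 to 0.99 for *Rbfox3*. On chip 3, which holds the undetected array of replicate 2, *Olig1* overlapped. For the other chips and genes the lowest *Pax1-/-* array of a chip lay above its highest WT array, a chip holding 1 to 3 arrays of a group.

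**Figure D3:**
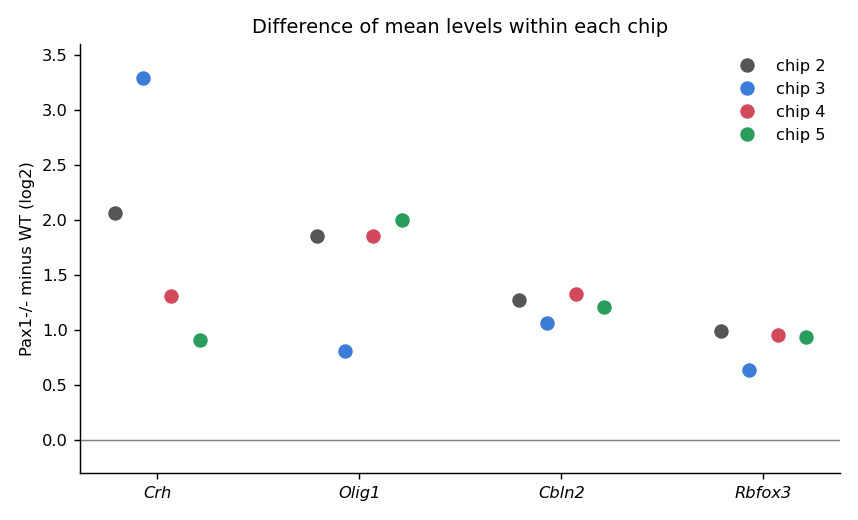
Mean level of *Pax1-/-* minus WT arrays (log2, vertical axis) for each gene (horizontal axis) within chips 2 to 5, with 1 point for each chip. All differences lie above 0, those of *Cbln2* between 1.06 and 1.33 and those of *Crh* between 0.91 and 3.29. The genes were picked by these arrays, so their shared direction is not a test.

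With a single *Pax1* allele lost, the 4 genes read close to WT, *Crh*, *Olig1* and *Rbfox3* near background in both groups. The log2 difference of *Pax1+/-* from WT was -0.32 for *Crh* (95% interval -0.99 to 0.35) and 0.01 for *Olig1* (-0.56 to 0.58). It was 0.18 for *Cbln2* (-0.15 to 0.5) and 0.22 for *Rbfox3* (-0.04 to 0.48), and replicates overlapped for all 4. With signals floored at 1 the differences of *Crh*, *Olig1* and *Cbln2* were -0.5, 0.42 and 0.21, and that of *Rbfox3* was 1.32 (standard error 0.596). Near background a small difference cannot show that the level was unchanged.

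To ask for the compound mutants without the groups used for picking, they were set against *Pax1+/-* cells. In *Pax1-/-Pax9+/-* cells 1830 genes were called (13.7%), 866 higher (6.48%), and *Crh* and *Cbln2* were 2 of these. *Crh* rose 9.29-fold (log2 fold change 3.22, standard error 0.369, limma adjusted p = 6.65e-05) and *Cbln2* 2.02-fold (1.01, standard error 0.18, adjusted p = 0.000873), each higher in 3 of 3 replicates than in any *Pax1+/-* replicate, as were 13.5% of all genes. *Olig1* gave -0.01 (95% interval -0.67 to 0.64, adjusted p = 0.983) and *Rbfox3* -0.24 (-0.54 to 0.07, adjusted p = 0.259), neither of them detected in the *Pax1-/-Pax9+/-* cells. In *Pax1-/-Pax9-/-* cells 2178 genes were called (16.3%), 1048 higher (7.84%). *Crh* rose 17.5-fold (4.13, standard error 0.369, adjusted p = 9.12e-07) and *Cbln2* 3.76-fold (1.91, standard error 0.18, adjusted p = 1.83e-06), again without overlap, as did 13.7% of all genes. *Olig1* gave 0.47 (-0.18 to 1.13, adjusted p = 0.289), and without replicate 2 it gave -0.04. With *Crh* detected on 2 of 5 *Pax1+/-* arrays, the size of its rise depended on the scaling, with 5.04 and 6 in the 2 mutants when signals were floored at 1 and 1.99 and 2.78 by the authors' log2 values, all still called. *Rbfox3* gave 0.58 (standard error 0.145, adjusted p = 0.00672) and stayed just short of the fold threshold. It passed the threshold when replicate 2, 4 or 5 of *Pax1+/-* or replicate 1 or 3 of *Pax1-/-Pax9-/-* was left out (0.6 to 0.71), and read 0.44 (adjusted p = 0.0601) without *Pax1-/-Pax9-/-* replicate 2. The mutants share their *Pax1+/-* controls here. With the compared groups alone in the fit, *Crh* and *Cbln2* kept their calls in both mutants.

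These comparisons set chip 1 against chips 3 to 5, so that chip and genotype cannot be told apart within them. Since WT and *Pax1-/-* arrays lie in both series, the series could be entered as a block, with each array as its own sample. Repeat arrays of a replicate count as independent in this fit. Chip 1 shares its series with chip 2, so an effect of chip 1 alone is not removed. The series effect itself rests on WT and *Pax1-/-* arrays, by which the genes were picked. In this fit 10 and 232 genes were called in place of 1830 and 2178. *Crh* was still called in both mutants (log2 fold changes 3.14 and 4.06, adjusted p = 0.00697 and 5.7e-05). *Cbln2* was still called in *Pax1-/-Pax9-/-* cells (1.67, adjusted p = 0.000306) but not in *Pax1-/-Pax9+/-* cells (0.77, adjusted p = 0.236). Without the library labelled *Pax1-/-Pax9-/-* replicate 1, *Crh* gave 4.13 and *Cbln2* 1.93 against *Pax1+/-*, and *Rbfox3* 0.6 (adjusted p = 1.34e-05, 2.2e-05 and 0.0192). *Olig1* gave 0.75 without it (adjusted p = 0.139). These values are from the fit without a block.

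The last *Pax9* copy was lost between mutants on the same chip, where 42 genes were called (0.314%), 17 of them higher (0.127%). *Crh* was higher in all 3 *Pax1-/-Pax9-/-* replicates (log2 fold change 0.92, 95% interval 0.06 to 1.78) and so was *Cbln2* (0.9, 0.48 to 1.32), without overlap, but neither passed the adjusted threshold (adjusted p = 0.545 and 0.0617). Without the library labelled *Pax1-/-Pax9-/-* replicate 1 they gave 0.92 and 0.91 (adjusted p = 0.599 and 0.111). Of all genes 7.96% were higher without overlap in this comparison. *Rbfox3* rose by at least 1.3-fold (measured log2 fold change 0.82, standard error 0.162, adjusted p = 0.0291), a lower bound since neither kept probe was detected in *Pax1-/-Pax9+/-* cells. The bound sets the mean of the brighter group against the lowest signal among detected probes of each array. This call was lost without the library labelled *Pax1-/-Pax9-/-* replicate 1 (0.84, adjusted p = 0.0539), without *Pax1-/-Pax9-/-* replicate 2 (0.68, adjusted p = 0.175), without *Pax1-/-Pax9+/-* replicate 2 or 3 (0.76 and 0.81, adjusted p = 0.128 and 0.117), and by either probe alone (1.08 and 0.56, adjusted p = 0.486 and 0.705). The call was also lost with the compared groups alone in the fit, where WT and *Pax1-/-* replicates add nothing to the spread (0.82, adjusted p = 0.174). *Olig1* gave 0.49 (-0.25 to 1.22, adjusted p = 0.824), an interval that spans 0, and -0.03 without *Pax1-/-Pax9-/-* replicate 2, where alone the probe was detected. Without the library labelled *Pax1-/-Pax9-/-* replicate 1 it gave 0.76 (adjusted p = 0.571).

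Outside the sorted population the 4 genes fell into different patterns. In *Pax1+/-* against EGFP(-) cells 2389 genes were called (17.9%), 1292 of them lower (9.66%), and *Olig1*, *Rbfox3* and *Cbln2* were among these. *Olig1* was 13.1-fold lower in the EGFP(+) cells (log2 fold change -3.71, standard error 0.253, adjusted p = 6.09e-09), *Rbfox3* 5.97-fold lower (-2.58, standard error 0.182, adjusted p = 8.71e-09) and *Cbln2* 1.75-fold lower (-0.81, standard error 0.2, adjusted p = 0.00603). Each of the 5 *Pax1+/-* replicates lay below each of the 3 EGFP(-) replicates, as for 10.9% of all genes. *Olig1* was detected on 1 of 5 *Pax1+/-* arrays, and its fold depended on the scaling, with -6.74 when signals were floored at 1 and -2.24 by the authors' log2 values. *Rbfox3* gave -4.56 and -1.45, and both genes were called each time. The *Cbln2* call was lost with arrays centred on their medians (-0.7, adjusted p = 0.0525), by the authors' log2 values (-0.55, under the fold threshold) and on chips 3, 4 and 5 alone. *Crh* gave 0.22 (-0.67 to 1.1, adjusted p = 0.771) with overlapping replicates, near background on both sides. Against the same EGFP(-) cells *Pax1-/-* cells had 4.01-fold lower *Olig1* and 3.8-fold lower *Rbfox3*. They had 5.81-fold higher *Crh*, and *Cbln2* levels that overlapped with those of EGFP(-) cells. In bulk samples a larger number of expressing cells and more RNA per cell cannot be told apart.

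To see what other genes of the nervous system read in the same cells, 8 lists were counted that leave out the 4 genes: the CRH axis, the oligodendrocyte lineage, cerebellins and their partners, neural RNA-binding and splicing factors, neurons, neural progenitors, neuropeptides and transmitter genes, and neural crest and Schwann cells. Of their 106 genes 75 were tested. In *Pax1-/-* against WT cells limma called 0 of the 75 in either direction, and their median log2 difference was 0.03, next to 0.01 over all genes. At an unadjusted p under 0.05, 5 were higher and 2 lower, and the methods' t-test without adjustment, at the same fold threshold, called 2 higher and 0 lower. The 5 were *Nr3c1*, the glucocorticoid receptor (log2 difference 1.11, adjusted p = 0.185), *Ednrb*, an endothelin receptor of the neural crest (1.17, adjusted p = 0.455), *Cbln1* (0.42, adjusted p = 0.431), *Nrcam* (0.42, adjusted p = 0.385) and *Nkx6-2* (0.3, adjusted p = 0.449). The 2 lower were *Ptbp2* of the splicing factor list (-0.32, limma adjusted p = 0.216) and *Nes* of the progenitor list (-0.39, adjusted p = 0.421). All of these genes were named after their values were seen.

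The CRH axis had 4 of its 10 listed genes tested, with a median of -0.01 in *Pax1-/-* against WT cells. The oligodendrocyte lineage, 12 of 16 tested, had a median of 0.11, the cerebellins and their partners, 4 of 8 tested, of 0.07, and the splicing factors, 10 of 13 tested, of 0.03. The 19 neuronal genes had a median of 0.02, the 13 neuropeptide and transmitter genes of 0.01 and the 8 progenitor genes of -0.12. The 6 neural crest and Schwann cell genes had the highest of these medians, 0.33. Their mean level was 7.23 to 8.3 in *Pax1-/-* and 6.62 to 7.79 in WT replicates, and that of the crest factor *Sox10* was 8.03 to 9.72 and 6.66 to 9.48, so that both overlapped. Markers of other cell types also had medians above 0. The 8 endothelial genes had a median of 0.57, with mean levels of 5.48 to 6.32 in *Pax1-/-* and 4.75 to 5.57 in WT replicates. The 5 skeletal muscle genes had a median of 0.51 (6.27 to 7.15 and 5.93 to 7.01) and the 3 notochord and floor plate genes of 0.37 (5.41 to 6 and 4.97 to 5.56). Of these 3 lists limma called 0 genes, with 3, 3 and 0 genes higher at an unadjusted p under 0.05, and their part in the levels of the 4 genes was not tested. The 9 macrophage and 5 erythroid genes had a median of 0.01 each and the 10 sclerotome and disc genes of -0.05, again with 0 called and with 0, 0 and 0 higher at an unadjusted p under 0.05 (1 sclerotome gene lower).

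Between *Pax1-/-* and WT cells, defining neuronal and progenitor markers overlapped, although most were higher in EGFP(-) cells. *Elavl3*, a pan-neuronal RNA-binding protein, read 6.41 to 7.01 in *Pax1-/-* and 5.9 to 7.25 in WT replicates, and 8.41 to 9.19 in EGFP(-) cells. *Stmn2*, a growth cone protein, read 5.93 to 6.39, 5.91 to 6.45 and 7.67 to 8.76. *Tubb3*, the neuronal beta-tubulin, was detected on 2 of 8 *Pax1-/-*, 3 of 6 WT and 2 of 3 EGFP(-) arrays. *Sox2* of neural progenitors read 4.89 to 5.9 in *Pax1-/-*, 5.02 to 6.45 in WT and 7.99 to 8.82 in EGFP(-) cells. The mean level of the neuronal list was 5.96 to 6.45 in *Pax1-/-*, 5.74 to 6.35 in WT and 7.52 to 7.87 in EGFP(-) replicates.

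**Figure D4:**
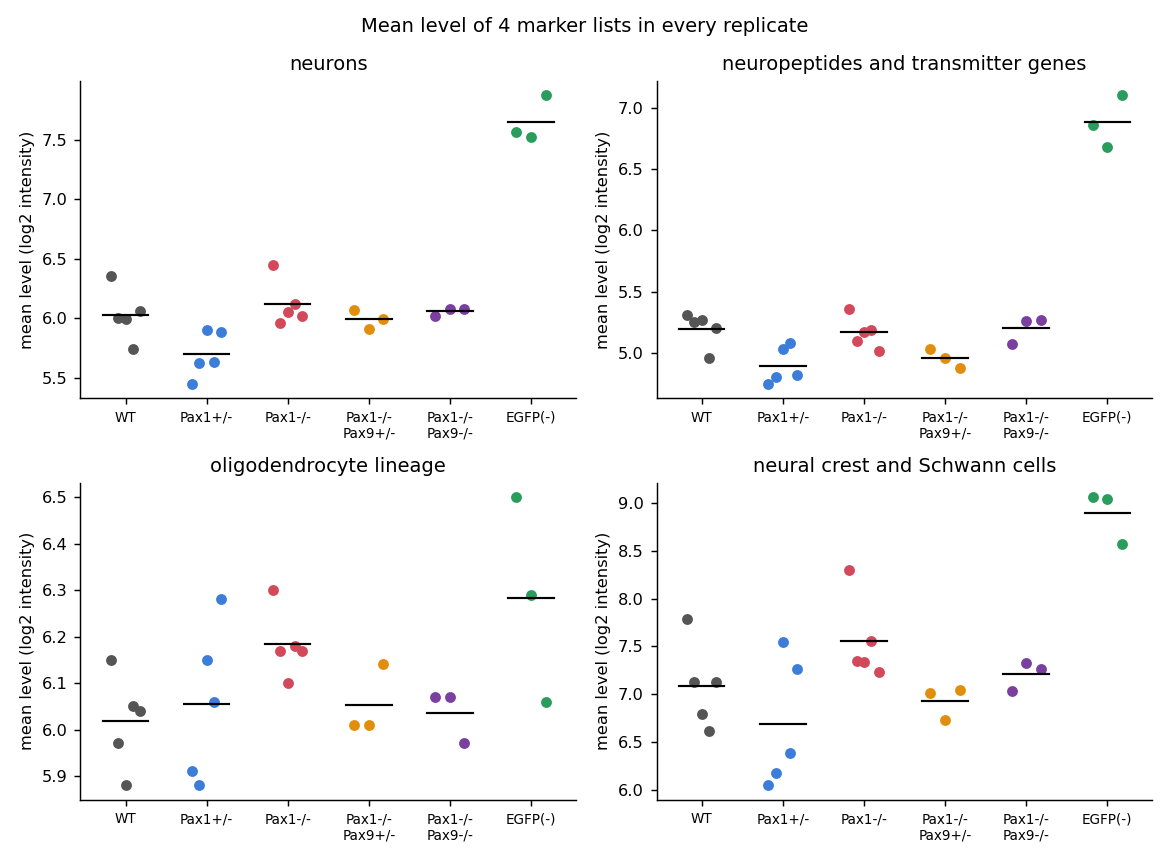
Mean level of the tested genes of 4 marker lists (log2 intensity, vertical axis, scaled to each panel) in the 6 groups (horizontal axis), with 1 point for each replicate and a line at the group mean. The neuronal list reads 7.52 to 7.87 in EGFP(-) cells and 5.96 to 6.45 in *Pax1-/-* cells, where it overlaps with WT, and none of the lists holds *Crh*, *Olig1*, *Cbln2* or *Rbfox3*.

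In *Pax1+/-* against EGFP(-) cells 45 of the 75 genes were lower (60%, next to 9.66% of all genes) and 3 higher (4%), with a median log2 fold change of -1.15 next to 0.08 over all genes. Lower too were 8 of 8 endothelial, 8 of 9 macrophage, 5 of 5 erythroid and 4 of 5 skeletal muscle genes, but 1 of 3 notochord and floor plate genes (median -0.05). The sclerotome and disc list went the other way, with 8 of 10 genes higher, 0 lower and a median of 1.52. A probe was kept if detected on at least 3 arrays, so the 3 EGFP(-) arrays alone could admit a gene. Such a gene is bound to read lower in *Pax1+/-* cells. Detected on no *Pax1+/-* array were 3 of 19 neuronal, 3 of 13 neuropeptide and transmitter, 2 of 8 endothelial, 5 of 9 macrophage and 3 of 5 erythroid genes. The lower neural genes include 16 of 19 neuronal genes such as *Rtn1*, a reticulon of the endoplasmic reticulum (-4.11, adjusted p = 3.69e-08), and *Snap25*, a synaptic vesicle fusion protein (-1.64, adjusted p = 5.54e-08). Also lower were 9 of 13 neuropeptide and transmitter genes, among them *Slc17a6*, a vesicular glutamate transporter (-5.37, adjusted p = 2.48e-08), and *Gad2*, which makes GABA (-4.7, adjusted p = 5.94e-09). *Olig1*, *Rbfox3* and *Cbln2* fell on the same side, but the oligodendrocyte list itself did not, with 1 of 12 lower and 2 higher. *Cbln1* (-1.53, adjusted p = 5.85e-05) and the cerebellin receptors *Nrxn2* and *Nrxn3* (-1.66 and -1.49) were lower as well. *Slc17a6*, *Gad2*, *Snap25* and *Nrxn3* had *Pax1+/-* means of 4.73, 5.02, 4.61 and 4.6, close to background. The size of their differences is thus uncertain.

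In *Pax1-/-Pax9-/-* against *Pax1+/-* cells 11 of the 75 genes rose (14.7%, next to 7.84% of all genes) and 2 fell, and in *Pax1-/-Pax9+/-* cells 7 rose (9.33%, near the 6.48% of all genes) and 1 fell. Without the library labelled *Pax1-/-Pax9-/-* replicate 1, 10 rose and 2 fell in *Pax1-/-Pax9-/-* cells. *Slc17a6* rose by 2.64 on the log2 scale in *Pax1-/-Pax9-/-* cells (standard error 0.399, adjusted p = 0.000206) and by 1.58 in *Pax1-/-Pax9+/-* cells (adjusted p = 0.00861). *Elavl2*, an RNA-binding protein of neurons, rose by 1.58 and 1.24 (adjusted p = 0.00219 and 0.0123), and *Nrxn2* by 0.79 and 0.7 (adjusted p = 0.000105 and 0.000426). In *Pax1-/-Pax9+/-* cells the replicates of *Elavl2* overlapped with those of *Pax1+/-* cells. *Gad1* (0.78), *Penk* (0.63) and *Sox2* (1.11) rose in *Pax1-/-Pax9-/-* cells, whereas *Nkx6-1* of the oligodendrocyte list fell there (-0.92, limma adjusted p = 0.0122). *Msi1*, an RNA-binding protein of neural stem cells, fell in both mutants by 1.26 and 1.42. *Slc17a6*, *Gad1*, *Penk* and *Sox2* had *Pax1+/-* means of 4.73, 4.51, 4.7 and 4.9, close to background. The size of their rises is thus uncertain. Once the chip series was a block, 4 rose and 0 fell in *Pax1-/-Pax9-/-* cells and 0 changed in *Pax1-/-Pax9+/-* cells. With arrays centred on their medians, 4 rose and 3 fell in the first and 1 rose and 3 fell in the second. The counts over the neural lists in the compound mutants thus changed with these settings, whereas *Crh* was called in both mutants under each of them. Markers of other cell types were also called in *Pax1-/-Pax9-/-* cells. Of the 10 sclerotome and disc genes 2 rose and 2 fell, the latter being *Col2a1* (-1.81, adjusted p = 1.44e-07) and *Pax9* itself (-1.8). Called genes of the endothelial, skeletal muscle and macrophage lists were all higher, with 2 of 8, 3 of 5 and 3 of 9 genes. Among them the endothelial receptor *Tek* rose by 2.84 (adjusted p = 2.81e-05), the muscle factor *Myf5* by 1.27 (adjusted p = 0.00258) and the microglial chemokine receptor *Cx3cr1* by 0.68 (adjusted p = 0.00244). In *Pax1-/-Pax9+/-* cells the macrophage genes *Cx3cr1* (0.81) and *C1qa* (1.42), the muscle factor *Myog* (0.71) and *Tgfbr2* of the sclerotome list (0.73) rose. *Krt18* of the notochord list fell by 0.71. *Myf5*, *Cx3cr1* and *C1qa* also read close to background in *Pax1+/-* cells, with means of 4.78, 4.71 and 4.47. The part of these cell types in the levels of *Crh* and *Cbln2* was not tested. Between the compound mutants limma called 0 of the 75, with 6 higher and 2 lower at an unadjusted p under 0.05, and 2 higher by the methods' t-test without adjustment.

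Over the 21 EGFP(+) replicates *Crh* and *Cbln2* had a correlation of 0.907 (Spearman 0.87), and *Olig1* and *Rbfox3* of 0.745 (0.553). *Crh* and *Olig1* correlated at 0.312 (0.251). These values share libraries, chips and the group differences by which the genes were picked. The genes most like *Crh* among all tested were *Cxcl13*, a chemokine (r = 0.908), *Cbln2* and *Masp1*, a complement protease (0.903). Those most like *Cbln2* were *Crh*, *Cxcl13* (0.901) and *Ogn*, a small leucine-rich proteoglycan (0.885). *Olig1* was most like *Rbfox3*, the defensin *Defa21* (0.74) and the sodium-calcium exchanger *Slc8a1* (0.727). *Rbfox3* was most like *Bcas1*, a gene of myelinating oligodendrocytes (0.769), the desmosomal cadherin *Dsg2* (0.759) and *Mapk10*, a Jun kinase enriched in neurons (0.751).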

How the data were processed

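RNA of sorted cells was measured on 28 Illumina arrays. One deposited table gives an intensity for each of 45281 probes and 28 arrays, from which the authors had subtracted background in BeadStudio without normalizing between arrays. Beside each intensity the deposited table gives a detection p-value. A second deposited table holds log2 values that the authors had quantile normalized in GeneSpring GX 12.5. Columns of values per sample that were not used: 0. The platform annotation gives 34885 probes exactly 1 symbol, 18 probes more than 1 and 10378 probes no symbol.

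With limma 3.58.1 in R 4.3.3 (statmod 1.5.0), intensities went through normexp (offset 16, background inferred from the detection p-values), quantile normalization and log2. Probes with a detection p-value under 0.05 on at least 3 arrays were kept (27688, of which 22486 with 1 gene), and the kept probes of a gene were averaged (13373 genes). Arrays of 1 group and 1 replicate name were averaged (24 replicates). The labels name replicates by number alone, and p-values measure the spread between these samples, which may in part be technical. The number of arrays limits the precision.

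One limma model (lmFit, eBayes) held the 5 EGFP(+) groups, and another EGFP(-), WT, *Pax1+/-* and *Pax1-/-* cells, both without a block. A gene was called at an adjusted p under 0.05 (Benjamini-Hochberg over all genes) and a fold change of at least 1.5. Comparisons that hold WT or *Pax1-/-* samples, by which the 4 genes were picked, give no p for them. The genes and lists were chosen with earlier results of these data known. Named are the 4 genes, up to 4 called genes with the smallest adjusted p for each list and comparison, the markers *Tubb3*, *Elavl3*, *Stmn2*, *Olig2*, *Sox10*, *Sox2*, *Pax1* and *Pax9*, and the 3 genes most correlated with each of the 4. The lists for other cell types are endothelium, skeletal muscle, notochord and floor plate, macrophages, erythroid cells, and sclerotome and disc anlage. The model was tested on simulated data. Alternatives were other scalings, filters, probe rules, chip and replicate blocks, single chips, the compared groups alone, eBayes with trend and robust estimation, no fold threshold, the methods' t-test and leaving out each replicate. Fits with a chip or chip series block, and those of single chips or series, took each array as its own sample. The sort protocol in the labels names EGFP(+) cells for every sample, and for the 3 EGFP(-) samples the title was followed.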

Additional observations from a re-analysis of the deposited data

Results flagged for a closer look

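In *Pax1+/-* cells the *Olig1* level of replicate 4, at 5.01, stood far from the other 4 replicates, of which the nearest read 4.6. Its gap made up 0.804 of the range of the group. It was the only value set apart in this way among 12 groups of 5 replicates examined for the 4 genes, and chance sets apart about 1 group in 20. The probe was detected on that array, as on 1 WT array (both on chip 4).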

How the results depend on the processing

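Outside the leave-one-out values, 594 values were recomputed under other settings, of which 486 stayed on the same side of their threshold or within the replicate spread, 17 fell below it, 7 came to pass it, 84 moved and 0 reversed. In *Pax1-/-* against WT cells all 4 genes stayed higher, but the count of 30 called genes did not hold. It was 1 with signals floored at 1, 9 with arrays centred on their medians, 19 each by the authors' log2 values, with no filter and with the study's kind of filter, 47 with each array as a sample, 85, 89 and 75 with chip as a random block, chip as a fixed block and chip series as a block, 17 and 3 in series A and B alone, 0 on each of chips 2 to 5 alone, 2 with the compared groups alone, and 227 and 1 by the methods' t-test before and after Benjamini-Hochberg adjustment.

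With signals floored at 1, the differences of *Crh*, *Olig1* and *Rbfox3* over WT grew to 3.56, 4.7 and 2.72, and by the authors' log2 values those of *Crh*, *Olig1*, *Cbln2* and *Rbfox3* shrank to 1.13, 0.83, 0.83 and 0.43. *Rbfox3* gave 0.57 with no filter and with the study's kind of filter, 0.66 by its brightest probe and first probe, and 1.08 by the second. On chip 3 alone *Crh*, *Olig1* and *Rbfox3* gave 3.29, 0.81 and 0.64, and *Crh* 1.31 and 0.91 on chips 4 and 5. For *Pax1-/-Pax9+/-* and *Pax1-/-Pax9-/-* against WT, *Crh* moved to 4.54 and 5.49 with floored signals and to 1.82 and 2.61 by the authors' values.

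*Pax1+/-* against WT moved for *Olig1* and *Rbfox3* to 0.42 and 1.32 with floored signals, and for *Olig1* to -0.16 with chip as a fixed block. *Pax1-/-* against EGFP(-) moved for *Crh*, *Olig1* and *Rbfox3* to 5.47, -2.46 and -3.16 with floored signals and to 1.47, -1.41 and -1.14 by the authors' values.

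For *Pax1-/-Pax9+/-* against *Pax1+/-*, 1830 genes called became 2962 when median centred, 821 by the authors' values, 3504 probes by single probes, 609 with chip as a random block, 10 with chip series as a block and 2770 with no fold threshold. *Cbln2* lost its call when median centred (0.56, limma adjusted p = 0.06) and with the series block (0.77). For *Pax1-/-Pax9-/-* against *Pax1+/-*, 2178 became 3345, 1002, 4083 probes, 931 and 232 under the first 5 of these. *Rbfox3* gained a call with chip as a random block (0.59) and with no fold threshold (0.58). Median centring shifted the median of all genes by -0.215 and -0.229 in these comparisons, and calls that were higher made up 11.5% and 10.7% in place of 47.3% and 48.1%. It gave 88.9% in place of 60% in *Pax1-/-* against WT cells, where floored signals gave 100%, and 21.1% in place of 40.5% between the compound mutants, where floored signals gave 14.6%.

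Between the compound mutants, 42 genes became 19 when median centred, 24 in series B alone and 13 each on chip 1 alone and with the compared groups alone. *Rbfox3* lost its call with floored signals (3.03), median centred (0.66), by the authors' values (0.39), by the brightest and by the first probe (1.08), by the second (0.56), in series B alone, on chip 1 alone and with the compared groups alone (0.82 each). *Cbln2* gained one by the authors' values (0.75), by the brightest and by the second probe (1.08) and with chip as a fixed block (0.9). Against EGFP(-) cells, 2389 genes became 1510 by the authors' values, 3658 probes by single probes, and 225, 1445 and 1177 on chips 3, 4 and 5. *Cbln2* lost its call when median centred (-0.7), by the authors' values (-0.55) and on chips 3, 4 and 5 alone (-0.54, -0.99 and -0.93), and *Olig1* on chip 3 alone (-3.73).

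Leaving out 1 replicate at a time gave 9 to 46 genes in *Pax1-/-* against WT, 1425 to 1836 and 1699 to 2232 in the compound mutants against *Pax1+/-*, 18 to 55 between them and 2104 to 2420 against EGFP(-) cells. *Rbfox3* ranged from 0.44 to 0.71 in *Pax1-/-Pax9-/-* against *Pax1+/-* and from 0.68 to 0.95 between the compound mutants. The lowest count, 9, came without *Pax1-/-* replicate 5, and 14, 15, 14 and 46 without *Pax1-/-* replicates 2 and 1 and WT replicates 2 and 5. Between the compound mutants 25 and 18 genes were called without *Pax1-/-Pax9+/-* replicates 1 and 3, and 24 without *Pax1-/-Pax9-/-* replicate 2.

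With the replicate number as a replicate block, 11 genes were called in *Pax1-/-* against WT cells and *Rbfox3* gained a call in *Pax1-/-Pax9-/-* against *Pax1+/-* (0.63), while the block changed no other call of the 4 genes. Samples of the same number in different groups had residual correlations of -0.183 to 0.144 (median 0.001, 46 pairs), against -0.241 to 0.348 (median 0.002, 191 pairs) for other numbers, so the numbers were not taken to pair samples. Chip as a fixed block could not be fitted for the compound mutants against other groups. Leaving out the repeat arrays on chip 2, and the settings for the neural lists together, were chosen after seeing the data. The causes of these shifts were not tested. Levels near background limit *Crh*, *Olig1* and *Rbfox3* in the groups where their probes were mostly not detected.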
